A study of Homo sapiens with 12 samples.

Results

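Cytosolic ribosomal proteins form the protein part of the large and small subunits of the ribosome, and the subject here is the mRNA of their genes. The members were chosen by name and gene type alone: every protein-coding gene of the count table whose symbol starts with RPL or RPS followed by a digit, without the S6 kinases (RPS6K), RPS19BP1 and the readthrough gene RPS10-NUDT3. This gave 85 of 58735 genes. Ribosomal proteins that fall outside the name rule, such as RPLP0, RPLP1, RPLP2, RPSA, FAU and RACK1, were followed as a separate list.

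The libraries came from HLE-B3, an immortalized human cell line of the lens epithelium, with 4 groups and 3 biological replicates in each. WT cells were untreated (0 h) or treated with 200 μM H2O2 for 12 h, and ATG7 KO cells were untreated (0 h) or treated in the same way. ATG7 is an enzyme of autophagosome formation, its gene was disrupted with CRISPR/Cas9, and single clones were picked, but the labels do not say which clone or clones the ATG7 KO libraries came from. As the untreated cells were collected at 0 h, an effect of H2O2 and an effect of 12 h in culture cannot be told apart, and a difference between the ATG7 KO and WT libraries cannot be told apart from a difference between the lines as they were grown from single cells.

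Between 15602183 and 17659496 reads were counted on genes per library. ATG7 mRNA was between 1.91 and 3.78 FPKM (reads scaled to gene length and to the size of the library) in all libraries and was not lower in ATG7 KO cells, so the counts do not check the knockout. Of the lens epithelial markers, PAX6 was between 0.505 and 1.35 FPKM and SIX3 between 1.85 and 3.21. CDH2 was between 97.9 and 184 FPKM and KRT18 between 21.9 and 63.0, whereas FOXE3, CRYAA, PROX1 and CDH1 stayed under 0.1 FPKM and CRYAB was at most 1.98. The mesenchymal markers VIM and COL1A1 were between 191 and 645 FPKM, and COL1A2 and PDGFRB between 1.48 and 7.22. Markers of leukocytes, endothelium, melanocytes and cornea were at most 0.445 FPKM, except the monocyte marker CD14 (0.434 to 1.99 FPKM).

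A human ribosome holds 1 copy of nearly every ribosomal protein, and the cell makes them in matched amounts. Their mRNAs are short and abundant, and most start with a C followed by an unbroken run of pyrimidines, the 5′ terminal oligopyrimidine (TOP) sequence. Through this sequence and the protein LARP1, the kinase mTOR controls how well these mRNAs are translated and how long they last. When ribosome assembly fails, free RPL5 and RPL11, bound to the 5S rRNA, block MDM2 and so raise p53. Autophagy can degrade ribosomes, and no protein was measured here.

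By their annotated starts, not all members were counted as having a TOP sequence. RefSeq start sites (GRCh38.p14) matched 68 members, and 45 of them (66.2%) started with C followed by at least 4 more C or T, compared with 4.99% of all other gene symbols (read on the strand of the gene, with the longest run taken where several starts are listed). The sequences shown are those of the members whose values the comparisons turn on. Each runs from 10 bases before the annotated start to 15 bases from it, and capitals mark the run of C and T that begins with a C at the start. The first 5 have such a run of at least 5 bases:
RPL26: gcgtgtagttCTCTTCCCTTTTgcg (chr17:8383179-8383203, minus strand)
RPS21: ctagctgcttCCTTTCTCTCTCgcg (chr20:62387093-62387117, plus strand)
RPL35: cgcctacttcCTCTTTCCCTCggag (chr9:124861943-124861967, minus strand)
RPL36: cggcgccagcCCTTCCgccacggcc (chr19:5690285-5690309, plus strand)
RPL22L1: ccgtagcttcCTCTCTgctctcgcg (chr3:170870181-170870205, minus strand)
The other 5 have a shorter run or none at the annotated start:
RPL36AL: tcttccctttCCTgttaggcgagag (chr14:49620612-49620636, minus strand)
RPS29: agcgcgcagctggcagcggtggttg (chr14:49598696-49598720, minus strand)
RPS28: gaagcacgtgactcctctccgccag (chr19:8321486-8321510, plus strand)
RPS27L: gatgccgagcgcagatcgcttgcag (chr15:63157463-63157487, minus strand)
RPL26L1: tccaggggtcggcgaacgaaacgcg (chr5:172958719-172958743, plus strand)
An annotated start can lie some bases from the start that the cells use, and a run that begins nearby, as in RPS28, was then not counted.

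Of the 85 members, 79 had enough reads to be tested in each comparison, 47 of the large and 32 of the small subunit. The other 6 had 0 reads in every library (3 members) or fewer than 10 reads in every library (3 members). Among them were the paralogs RPL3L, RPL10L and RPL39L, which are known from muscle and testis, and the readthrough genes RPL17-C18orf32 and RPL36A-HNRNPH2. Levels of members on the Y chromosome are not given. The highest mean levels over the 12 libraries were those of RPS12 (577 FPKM), RPL7A (452 FPKM) and RPL8 (416 FPKM). The lowest of the tested members were RPS10 (1.09 FPKM) and RPL36A (2.02 FPKM). These levels are per length of all annotated exons, which had a median of 2824 bases in the members, whereas the median length of their mRNAs was 764.5 bases, so levels of different members are only roughly comparable. RPS10 shared 39.4% of its exon bases with RPS10-NUDT3 on the same strand and had between 25 and 63 reads per library.

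One library stood apart and touches every result on untreated ATG7 KO cells. In untreated ATG7 KO replicate 1, members took 5.46% of the reads, compared with 3.11% and 3.08% in replicates 2 and 3. Per member, its FPKM was a median of 1.93 times the mean of the other replicates, and 76 of the 77 members with at least 1000 reads in total were higher. Other coding genes as a whole were not shifted (median ratio 1.02), but other coding genes whose mRNA is under 1000 bases were (median 1.65, with 665 of 732 higher). Such short mRNAs took 10.1% of the reads of this library and between 6.34% and 7.03% of the others. The part of mRNA length or RNA quality in this library was not tested, so counts and medians of the whole set that use it are given with and without it. Some values of single members or smaller groups are given only without it.

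Without that library, the share of reads on members was higher in H2O2-treated WT cells than in any other group. Untreated WT libraries had 3.05%, 3.04% and 3.17% of their reads on members (mean 3.09% ± 0.0739, SD, n = 3). H2O2-treated WT libraries had 3.92%, 3.89% and 4.05% (mean 3.955% ± 0.0871, n = 3). H2O2-treated ATG7 KO libraries had 3.20%, 3.12% and 3.05% (3.12% ± 0.0757, n = 3), near the untreated level of either line. The H2O2-treated WT libraries thus overlapped with none of the other groups except through untreated ATG7 KO replicate 1, which was above all of them. In bulk RNA, fewer cells of a kind and less RNA per cell cannot be told apart, and a share of reads does not measure the amount per cell.

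**Figure D1:**
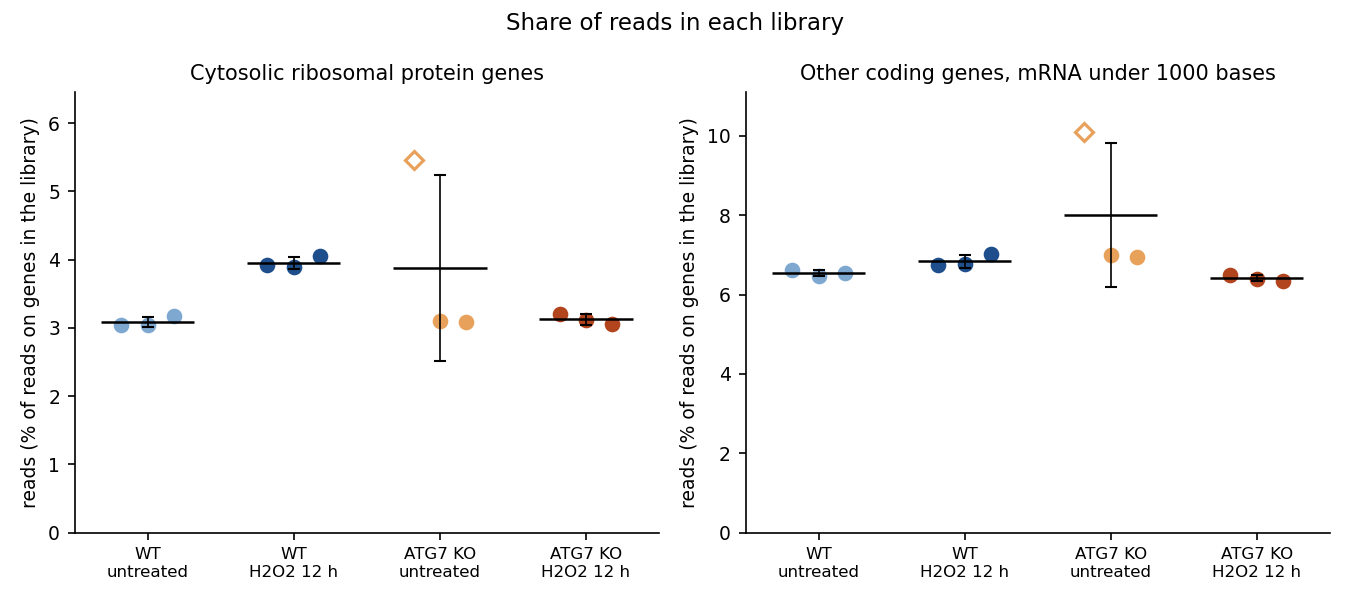
Share of the reads on genes (%) that fell on the ribosomal protein genes (left) and on other coding genes with an mRNA under 1000 bases (right), by group. Points are libraries, bars are means with SD (n = 3), and the open diamond is untreated ATG7 KO replicate 1. The H2O2-treated WT libraries lie between 3.89% and 4.05% on the left, and the open diamond at 5.46% on the left and 10.1% on the right.

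The response of WT cells to H2O2 is the difference between treated WT libraries at 12 h and untreated ones at 0 h. In WT cells the members rose together. Of the 79 tested members, 74 were higher after H2O2 at an adjusted p under 0.01 and none was lower, compared with 30.9% of all genes tested that were higher and 30.1% that were lower. All 79 had a fold change above 1, and their median log2 fold change was 0.42 (quartiles 0.32 and 0.55), against -0.01 for all genes tested. The rise was shallow: only RPL26 passed the study's stricter rule of a log2 fold change beyond 1 as well as FPKM above 1, which 7.3% of all genes tested passed as higher. In 76 members every treated WT library was above every untreated one, which was so for 35.8% of all genes tested. The members that did not pass were RPL3, RPL21, RPL23A, RPS15A and RPS23, with log2 fold changes between 0.06 and 0.28.

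The steepest rise was that of RPL26 (GRCh38 chr17:8377516-8383250, minus strand), a protein at the exit of the peptide tunnel that is also known to bind p53 mRNA. RPL26 was at 5.94, 6.90 and 7.24 FPKM in untreated WT libraries and at 17.15, 17.5 and 17.05 FPKM in H2O2-treated ones. The groups were far apart, with a log2 fold change of 1.36 ± 0.08 (SE, adjusted p = 2.53e-20). RPS29, a zinc-binding protein of the small subunit head, was at 7.83, 8.07 and 9.17 FPKM before and 16.4, 16.9 and 16.6 FPKM after H2O2 (0.99 ± 0.05, adjusted p = 4.99e-22). RPS10, with the fewest reads of all, was at 0.608, 0.853 and 0.931 FPKM before and 1.5, 1.735 and 1.33 FPKM after (0.92 ± 0.24, adjusted p = 0.00066). None of these 3 genes had untreated and treated WT libraries that overlapped.

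By place in the ribosome, the small subunit head stood at the top of the range. Of its 14 tested members all 14 were higher, with a median log2 fold change of 0.64, and RPS12 (0.70), RPS19 (0.69), RPS20 (0.70) and RPS28 (0.85) were among them. Of the 16 members in the body and platform of the small subunit, 14 were higher with a median of 0.38, and RPS21 rose most of these (0.86). In the large subunit, 8 of the 9 proteins that line the tunnel or its exit were higher (median 0.47). RPL24, which reaches across to the small subunit, rose by 0.82 on the log2 scale, and RPL38 and RPL37 by 0.80 and 0.74. The difference between these places was not tested, since the genes are not replicates. The 5S RNP partners RPL5 and RPL11, the MDM2-binding members, lay at and under the median of the set: RPL5 went from 186, 172 and 187 FPKM to 240, 247 and 247 FPKM (0.42 ± 0.04, adjusted p = 6.2e-13), and RPL11 from 206.5, 198 and 228 FPKM to 271.5, 256 and 276 FPKM (0.34 ± 0.04, adjusted p = 5.03e-09).

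In the WT response, members with and without the pyrimidine start were much alike in count and median. Of the members with the start 42 of 44 were higher with a median log2 fold change of 0.42, and of those without it 19 of 20 were higher with a median of 0.40. Among other genes, 31.6% of those with the start and 31.7% of those without it were higher, which is nearly the same share. Between treated lines, 39 of 44 members with the start were lower in ATG7 KO cells (median -0.36), against 14 of 20 without it (median -0.19), and this difference was not tested. Other genes were lower there in 28.6% with the start and 29.1% without it, and higher in 32% and 30.6%. By its annotated position RPL26 has the start, and RPS29 and RPS28 do not. In RPS28 a run of C and T begins just after the annotated base and was not counted. Other short mRNAs also tended upward: other coding genes with an mRNA under 1000 bases were at a median of 0.22 on that scale, and 419 of 943 were higher and 128 lower. With an offset for mRNA length, chosen after the data were seen, 64 members were higher and their median was 0.30, against 0.42 without it.

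**Figure D2:**
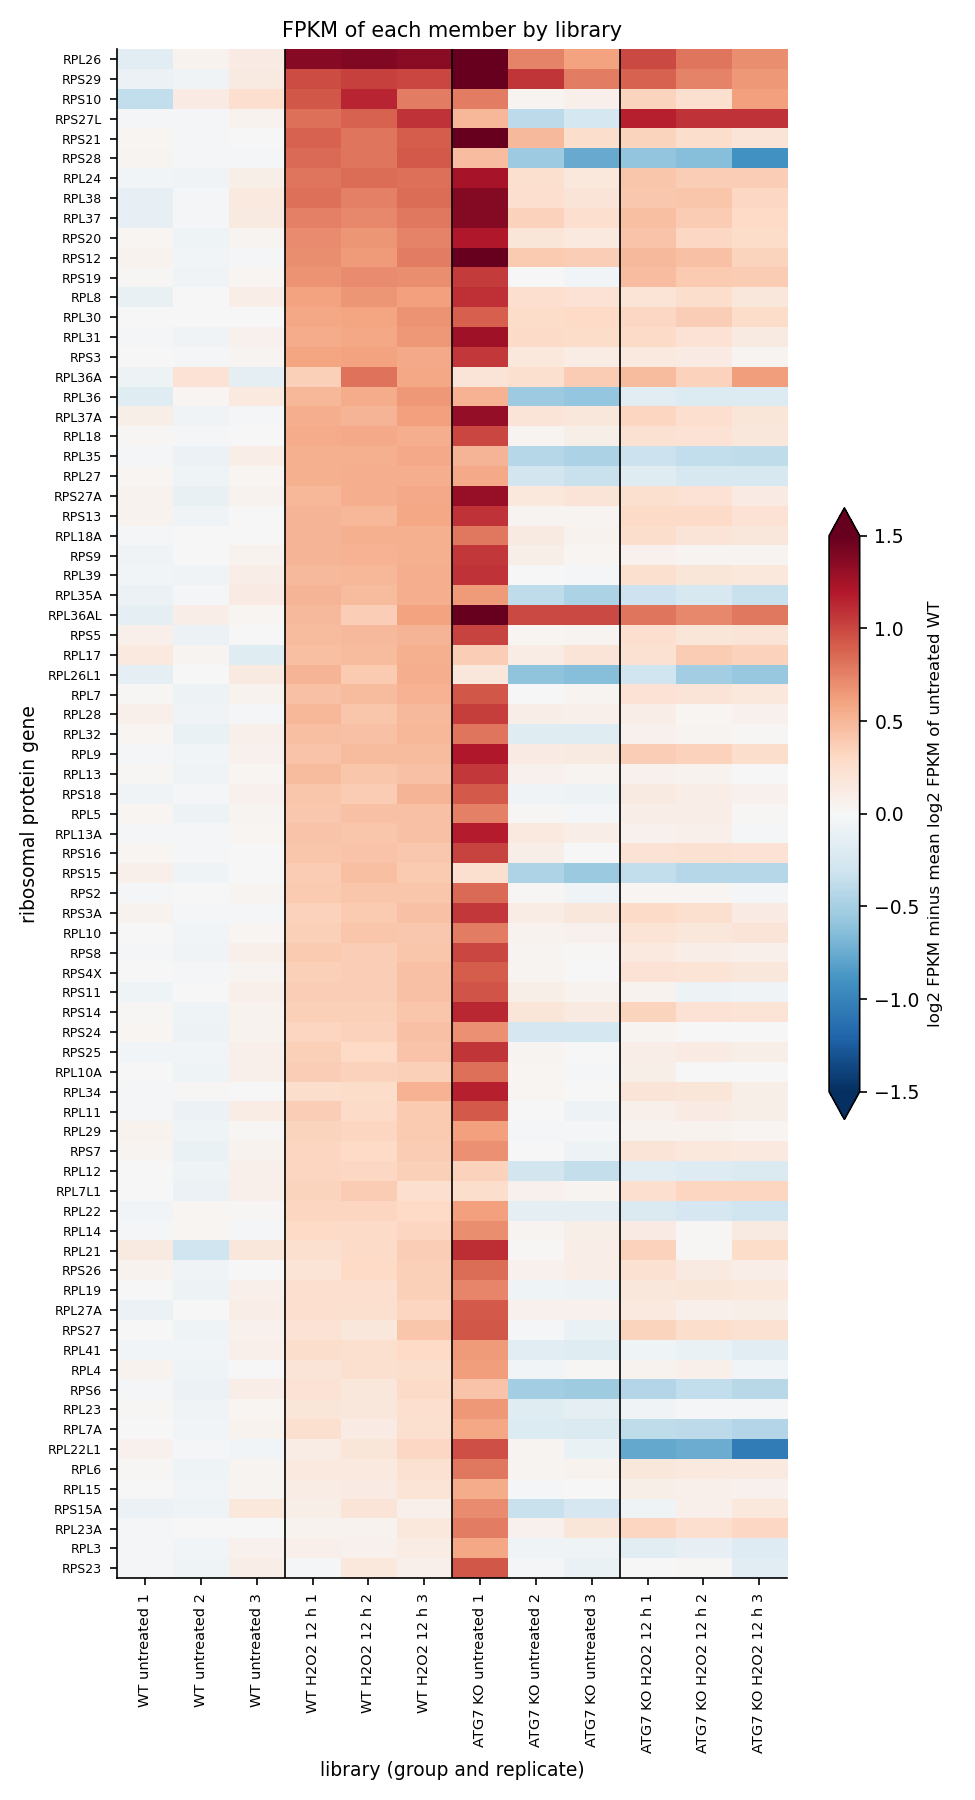
Level of 77 tested members in each library, as log2 FPKM minus the mean log2 FPKM of the untreated WT libraries, from blue (lower) to red (higher), with members sorted by their level in H2O2-treated WT cells. The H2O2-treated WT columns are red in almost every row, from RPL26 (log2 fold change 1.36) down to RPS23 (0.06), untreated ATG7 KO replicate 1 is red in its own pattern, and RPS28, RPL35, RPS15 and RPL22L1 are blue in H2O2-treated ATG7 KO cells.

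The same treatment was given to ATG7 KO cells, where a difference from WT cells can also be one between the lines. The result rests on untreated ATG7 KO replicate 1. With it, 1 of 79 members was higher and none lower (all genes tested: 13.6% and 12.4%). An unadjusted p under 0.05 was reached by 3 members and by 7952 of the 15475 genes tested. The median log2 fold change of the members was -0.26. That median was -0.13 with the offset for gene length and -0.03 with that for mRNA length. DESeq2 also called 1 member lower. Without it, 34 members were higher and 6 lower (all genes tested: 29.8% and 28.6%), and the median was 0.10, with quartiles of 0.02 and 0.16. The rise left without that library was small: the small subunit head had a median of 0.12 and 6 of 14 members higher.

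RPS27L was the exception in ATG7 KO cells. This paralog of RPS27 is a known p53 target. It was at 8.14, 4.37 and 4.77 FPKM in untreated ATG7 KO replicates 1 to 3 and at 12.85, 12.2 and 12.1 FPKM after H2O2, with no overlap even with replicate 1 included. Its log2 fold change was 1.10 ± 0.23 (adjusted p = 0.00766) with all libraries and 1.43 ± 0.05 (adjusted p = 1.31e-82) without replicate 1. In WT cells it rose from 5.67, 5.63 and 5.95 FPKM to 10.2, 10.6 and 12.2 FPKM (0.93 ± 0.06, adjusted p = 1.93e-18). RPS19, a protein of the small subunit head, was higher without replicate 1 as well (0.41 ± 0.03, adjusted p = 6.38e-34), but not with it (-0.03 ± 0.29, adjusted p = 0.949).

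RPL22L1, the paralog of the RNA-binding protein RPL22, moved the other way. It was at 35.8, 18.9 and 17.1 FPKM in untreated ATG7 KO replicates 1 to 3 and at 10.75, 10.97 and 8.85 FPKM after H2O2. The treated libraries lay below every untreated one. The log2 fold change was -1.23 ± 0.28 (adjusted p = 0.0117) with all libraries and -0.84 ± 0.08 (adjusted p = 3.08e-22) without replicate 1. In WT cells RPL22L1 was at 19.1, 18.02 and 17.9 FPKM before and 19.7, 20.8 and 22.8 FPKM after H2O2, a log2 fold change of 0.20 ± 0.06 (adjusted p = 0.00606) that lost its call when any library except H2O2-treated WT replicate 1 was left out. Of the other members called lower without replicate 1, RPL36AL (-0.23 ± 0.04, adjusted p = 6.2e-07) and RPL7A (-0.21 ± 0.03, adjusted p = 8.89e-11) changed most.

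**Figure D3:**
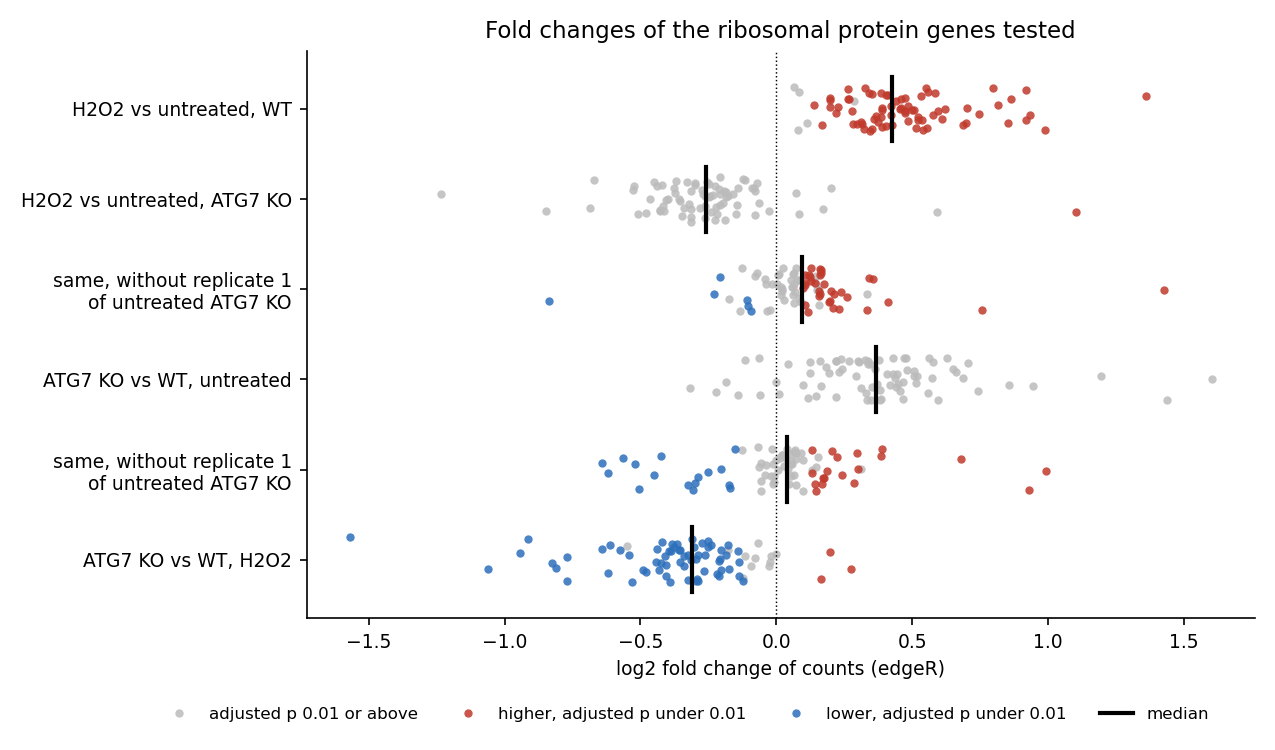
Log2 fold change of counts for 78 tested members in each comparison, with black bars for medians, red and blue points for members called higher and lower at an adjusted p under 0.01, and grey points for the rest. Almost all points are to the right for H2O2 in WT (median 0.42) and to the left for ATG7 KO against WT with H2O2 (median -0.31), and leaving out untreated ATG7 KO replicate 1 moves the median of H2O2 in ATG7 KO cells from -0.26 to 0.10.

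The difference between the responses was tested directly as an interaction, the log2 fold change of ATG7 KO cells minus that of WT cells. With all 12 libraries, 6 members had a lower response (a difference below 0) in ATG7 KO cells and none a higher one (all genes tested: 7.01% and 7.02%), with a median of -0.69. Without untreated ATG7 KO replicate 1, 57 members had a lower response and 1, RPS27L, a higher one (all genes tested: 16.3% and 17.8%), with a median of -0.30. All 6 of the first were among the 57. The largest differences without that library were those of RPL26 (-1.20 ± 0.12, adjusted p = 2.25e-15), RPS29 (-1.15 ± 0.14, adjusted p = 9.36e-05) and RPL22L1 (-1.02 ± 0.10, adjusted p = 2.15e-14). RPS21 followed at -0.98 ± 0.07 (adjusted p = 2.91e-22) and RPS28 at -0.91 ± 0.09 (adjusted p = 2.12e-10). RPS27L differed by 0.51 ± 0.08 (adjusted p = 3.78e-07) without that library and by 0.17 ± 0.25 (adjusted p = 0.625) with it. Both 5S RNP members had a lower response without it, RPL5 by -0.34 and RPL11 by -0.21. Other coding genes with an mRNA under 1000 bases had medians of -0.28 without that library and -0.55 with it, near those of the members. With the offset for mRNA length, the median of the members over all 12 libraries was -0.35.

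Between H2O2-treated ATG7 KO and WT cells, a comparison that uses neither untreated group, the members were lower as a set. Of 79 members, 65 were lower and 3 higher in ATG7 KO cells (all genes tested: 27.9% lower and 27.7% higher). Their median log2 fold change was -0.31 (quartiles -0.43 and -0.19), against -0.00 for all genes tested. In 67 members every ATG7 KO library was below every WT library, which was so for 33.6% of all genes tested. The comparison shares the H2O2-treated WT libraries with the response of WT cells, so the rise there and the lower level here are not independent of each other. Other coding genes with an mRNA under 1000 bases had a median of -0.21, with 417 of 957 lower and 138 higher, and with the offset for mRNA length 51 members were lower, 5 higher and the median was -0.16.

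RPS28 (GRCh38 chr19:8321158-8323340, plus strand), a protein of the small subunit head, differed most. It was at 84.1, 81.4 and 88.65 FPKM in WT and at 31.1, 30.1 and 24.9 FPKM in ATG7 KO libraries. Every ATG7 KO library had less than each WT library by a wide margin, and the log2 fold change was -1.57 ± 0.06 (adjusted p = 9.85e-15). RPL22L1, with the values given above, was lower by -1.06 ± 0.08 (adjusted p = 1.18e-13). These 2 were the only members past the study's stricter rule, which 4.43% of all genes tested passed as lower. RPL26L1, the paralog of RPL26, was at 34.0, 31.4 and 34.8 FPKM in WT and 19.5, 16.7 and 16.2 FPKM in ATG7 KO libraries (-0.94 ± 0.08, adjusted p = 3.53e-12). RPL35, at the tunnel exit, was at 562, 564 and 576 FPKM against 310, 301 and 298 FPKM (-0.91 ± 0.03, adjusted p = 2.6e-21). RPS15, in the head, was at 271.5, 286 and 275 FPKM against 161, 156 and 155 FPKM (-0.83 ± 0.03, adjusted p = 1.38e-19). The spread between replicates was small beside each of these differences.

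A few members were higher in H2O2-treated ATG7 KO cells. RPL36AL, an autosomal paralog of the X-linked RPL36A, was at 126, 116 and 136 FPKM in WT and 157, 148 and 155 FPKM in ATG7 KO libraries (0.27 ± 0.05, adjusted p = 1.84e-05). RPL23A, a binding site for targeting factors at the tunnel exit, was at 126.5, 126 and 136 FPKM against 152, 144 and 151 FPKM (0.20 ± 0.04, adjusted p = 2.2e-05). RPS27L was the third, at 0.16 ± 0.05 (adjusted p = 0.00852), with groups that overlapped through H2O2-treated WT replicate 3, and it lost its call when any library other than H2O2-treated WT replicate 3 was left out. RPL5 was lower by -0.36 ± 0.03 (adjusted p = 2.35e-11) and RPL11 by -0.26 ± 0.03 (adjusted p = 4.55e-08). RPL7L1, a protein of large subunit assembly that resembles RPL7, was at -0.03 ± 0.04 (adjusted p = 0.543).

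Untreated ATG7 KO and WT cells were compared to see which of these differences were present before H2O2. With all libraries none of the 79 members passed the test in edgeR (all genes tested: 4.42% higher and 3.28% lower), although the median log2 fold change was 0.36. Of these members, 9 had an unadjusted p under 0.05, against 5048 of the 15357 genes tested, and DESeq2 called 3 higher. Without untreated ATG7 KO replicate 1, 19 members were higher and 17 lower (all genes tested: 18.2% and 17.9%) with a median of 0.04. The members went in both directions, as did all genes tested.

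The members that differed without that library included some of the extremes of the treated comparison but not RPL22L1, which was at -0.02 (adjusted p = 0.861). RPS28 was at 48.3, 46.05 and 46.1 FPKM in WT and at 64.3, 32.0 and 27.8 FPKM in untreated ATG7 KO replicates 1 to 3. Its log2 fold change was -0.18 ± 0.29 (adjusted p = 0.689) with replicate 1 and -0.64 ± 0.06 (adjusted p = 2.9e-23) without it. RPL26L1 (-0.62 ± 0.09, adjusted p = 9.55e-10), RPL36 (-0.56 ± 0.08, adjusted p = 3.29e-05) and RPS6, the S6 kinase substrate (-0.52 ± 0.04, adjusted p = 1.61e-25), were also lower without replicate 1. With it they were at -0.32, -0.11 and -0.14 and were not called. RPS15 (-0.50 ± 0.04, adjusted p = 1.09e-23) and RPL35 (-0.45 ± 0.04, adjusted p = 9.09e-20), extremes of the treated comparison, were lower without replicate 1 too. With it RPS15 was at -0.22 and RPL35 at -0.07, and neither was called. RPL36AL was highest without replicate 1, at 81.8, 96.3 and 91.4 FPKM in WT and 377, 178 and 179 FPKM in ATG7 KO libraries. Every ATG7 KO library was above every WT library, and the log2 fold change was 1.44 ± 0.29 (adjusted p = 0.016) with replicate 1 and 0.99 ± 0.05 (adjusted p = 3.05e-47) without it. RPS29 was at 44.7, 17.5 and 14.2 FPKM in ATG7 KO replicates 1 to 3, which were all above the WT libraries given earlier, and differed by 0.93 ± 0.10 without replicate 1 (adjusted p = 0.000183). RPL26 was at 24.85, 11.2 and 10.2 FPKM (0.68 ± 0.09 without replicate 1, adjusted p = 5.29e-11). RPS29 and RPL26, the members that rose most in WT cells, thus started higher in ATG7 KO cells.

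Paralogs give a pair of genes for 1 position in the ribosome, except RPL7L1, the assembly protein, which was set beside RPL7 as the gene it resembles. The reads of a paralog per 100 reads of its partner do not depend on library scaling. RPS27L had 27.5 ± 0.614 reads per 100 RPS27 reads in untreated WT, 43.5 ± 1.44 in H2O2-treated WT, 22.0 ± 2.10 in untreated ATG7 KO and 48.8 ± 0.507 in H2O2-treated ATG7 KO libraries (SD, n = 3). Both treated groups lay above both untreated ones, and none of the groups overlapped. RPL22L1 had 53.01 ± 3.195, 49.04 ± 4.12, 60.5 ± 6.57 and 35.05 ± 3.185 reads per 100 RPL22 reads in the same order of groups. Only the H2O2-treated ATG7 KO libraries were set apart, with at most 37.7 where no other library had fewer than 45.55. RPL26L1 fell from 166 ± 4.46 reads per 100 RPL26 reads in untreated WT to 89.8 ± 6.13 in H2O2-treated WT, and had 61.7 ± 10.5 and 68.0 ± 1.16 in untreated and treated ATG7 KO libraries. RPL26L1 was thus the more counted of the pair in untreated WT cells and the less counted in all others. RPL7L1 had 26.8 reads per 100 RPL7 reads in untreated ATG7 KO replicate 1 and between 35.4 and 47.7 in all other libraries. In that replicate the ratio was 20.4 for RPS27L, 67.4 for RPL22L1 and 50 for RPL26L1, against 21.4 and 24.4, 59.7 and 54.3, and 64.9 and 70.2 in untreated ATG7 KO replicates 2 and 3. RPL36AL had at least 789.9 reads per 100 RPL36A reads, but RPL36A had only 101 to 169 reads per library. Reads that map to both genes of a pair could be lost or split, since the treatment of multi-mapping reads is not given in the sources used here.

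**Figure D4:**
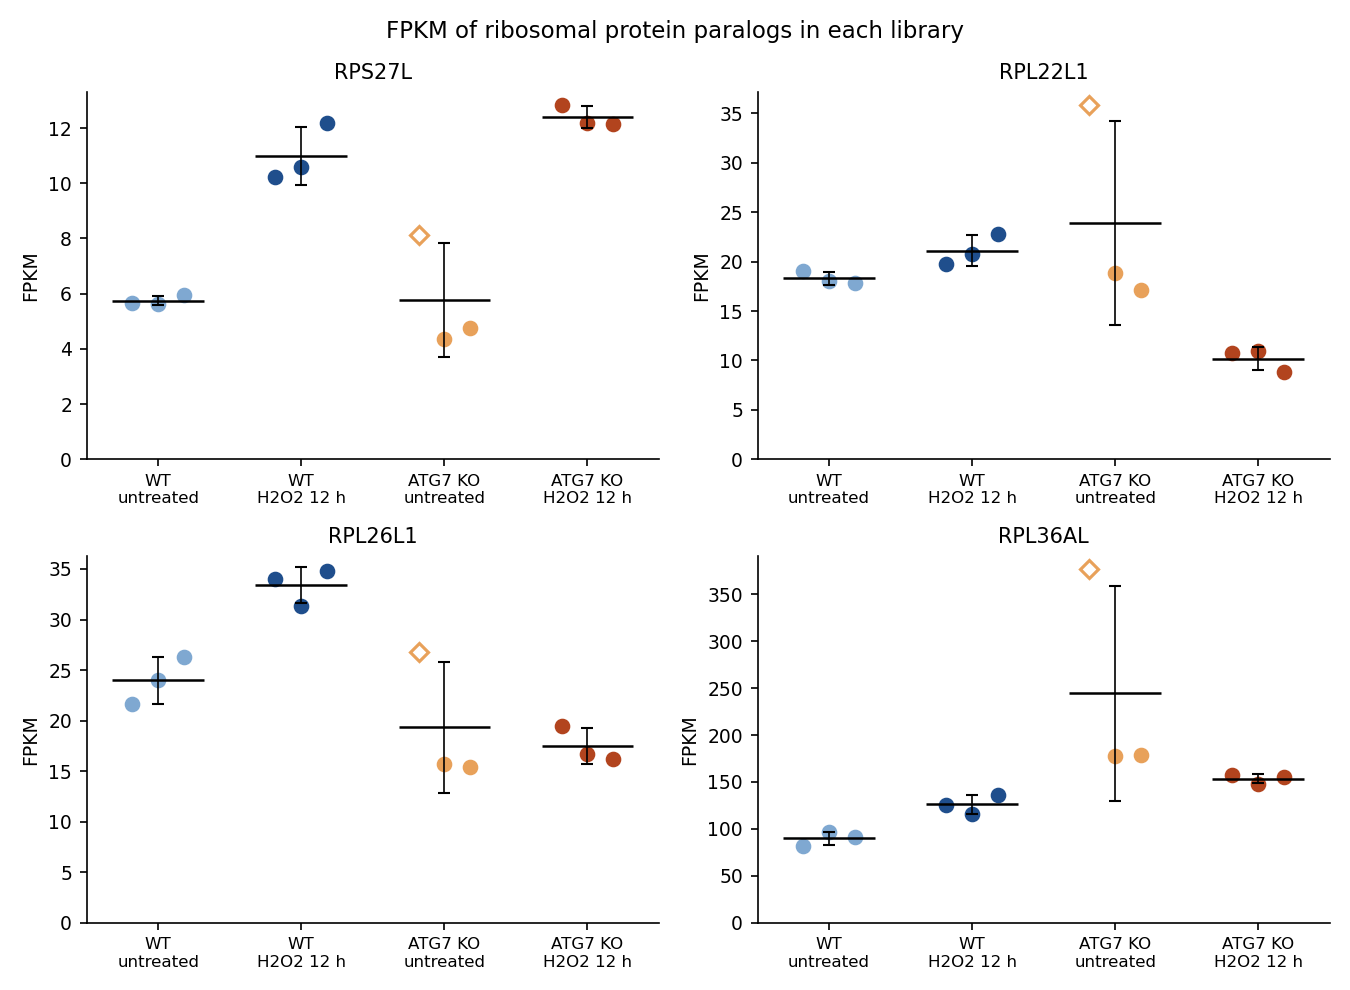
FPKM of the paralogs RPS27L, RPL22L1, RPL26L1 and RPL36AL in each library by group, with bars for means and SD (n = 3) and an open diamond for untreated ATG7 KO replicate 1. RPS27L is higher in both H2O2-treated groups (10.2 to 12.85 FPKM), RPL22L1 is lowest in H2O2-treated ATG7 KO cells (8.85 to 10.97 FPKM), and RPL36AL is above WT in all ATG7 KO libraries.

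Differences of the members between the lines went with those of the genes around them. Each member was set beside the other genes within 5 Mb on each side. Across 78 members the log2 fold change of H2O2-treated ATG7 KO against WT cells went with the median of these neighbours (Pearson's r 0.66, Spearman's rho 0.55), as it did in untreated cells without ATG7 KO replicate 1 (0.76 and 0.51), and hardly at all for the response of WT cells to H2O2 (0.17 and 0.19). Members on a chromosome share neighbours, so these are descriptions across genes. RPS28 on chromosome 19 lay among 234 tested neighbours with a median of -0.63, of which 168 were lower and 6 higher. RPS15 and RPL36, also on chromosome 19, had neighbours with medians of -0.62 and -0.61 and were themselves at -0.83 and -0.77.

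Members on other chromosomes went with their neighbours in part. On chromosome 9, RPL35 (-0.91), RPS6 (-0.64), RPL7A (-0.62) and RPL12 (-0.53) had neighbours with medians between -0.36 and -0.18. RPL22L1 on chromosome 3 was at -1.06 among neighbours with a median of -0.38. On chromosome 14, RPL36AL was at 0.27 and its neighbours had a median of 0.68, with 38 of 54 higher, whereas RPS29 among the same neighbours was at -0.24. In untreated cells without ATG7 KO replicate 1, RPL36AL was at 0.99 and RPS29 at 0.93, among neighbours with a median of 0.65. Between treated lines, members whose neighbours had medians between -0.1 and 0.1, 34 in number, still had a median of -0.29. The 21 members with higher neighbours had a median of -0.22, against -0.48 for the 23 with lower neighbours. The median of the members was below 0 in each of these classes of position. Copy number was not measured, and its part was not tested.

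**Figure D5:**
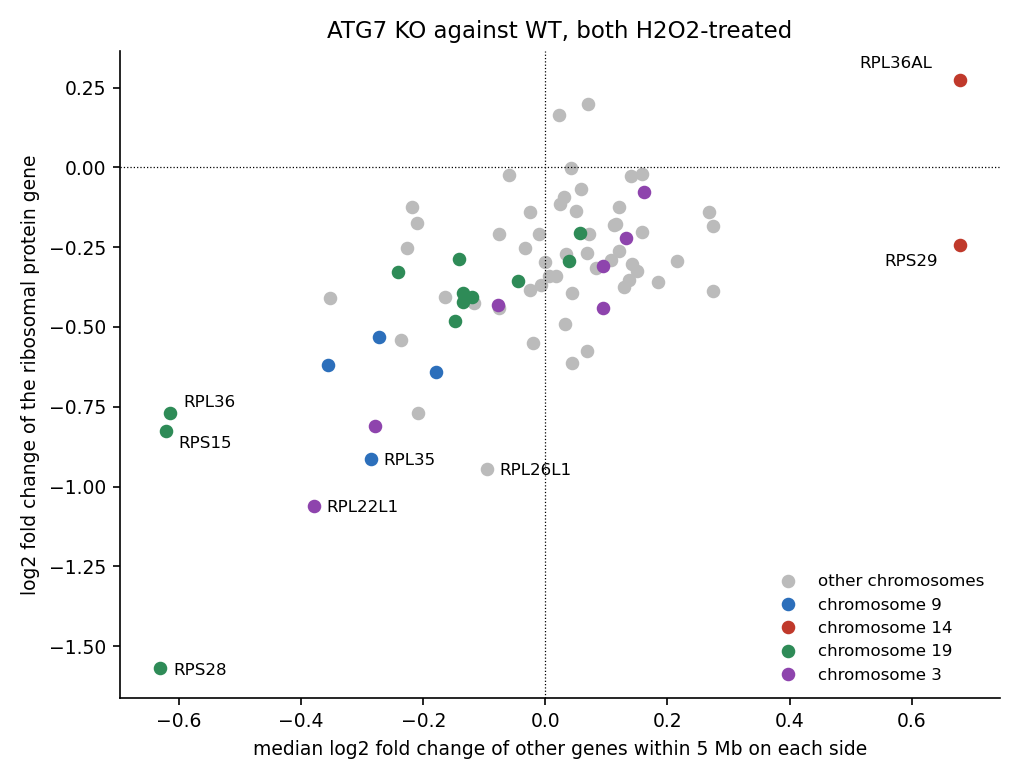
Log2 fold change of 78 members in H2O2-treated ATG7 KO against WT cells (vertical) against the median log2 fold change of the other genes within 5 Mb on each side (horizontal), with chromosomes 3, 9, 14 and 19 in colour. RPS28, RPS15 and RPL36 on chromosome 19 lie at the lower left with neighbour medians between -0.63 and -0.61, and RPL36AL on chromosome 14 lies at the upper right with a neighbour median of 0.68.

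The other genes of the ribosome and its assembly were followed by lists. Over all genes tested, 30.9% were higher and 30.1% lower after H2O2 in WT cells. Between treated lines, 27.9% of all genes tested were lower and 27.7% higher in ATG7 KO cells. The 7 ribosomal proteins outside the name rule behaved like the members. In WT cells 7 of 7 were higher after H2O2 (median 0.54), with FAU, whose product is cut into a ribosomal protein, at 0.79. Between treated ATG7 KO and WT cells 6 of 7 were lower (median -0.27). The host genes of small nucleolar RNAs, many of which are TOP transcripts without a protein, moved further. In WT cells 11 of 12 were higher (median 0.91), led by SNHG8 (1.64 ± 0.24 in SE) and C6orf48 (1.22), the older symbol of SNHG32. Between treated lines 10 of 12 were lower in ATG7 KO cells (median -0.43), with SNHG1 at -1.18. By contrast, of 13 tested elongation factors and other coding TOP mRNAs only 3 were higher and 1 lower in WT cells (median -0.02), with EEF1B2 at 0.47 and EIF4B at -0.31.

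The counts of assembly factors in ATG7 KO cells depended on untreated replicate 1. Over all genes tested, 13.6% were higher and 12.4% lower in ATG7 KO cells with it, and 29.8% and 28.6% without it. Of 32 small subunit assembly factors 25 were higher and 1 lower in WT cells (median 0.45), and in ATG7 KO cells 6 were higher with untreated replicate 1 (median 0.27) and 25 without it (median 0.35), with none lower. WDR43, a factor of early small subunit assembly, rose by 1.56 in WT and by 1.41 and 1.43 in ATG7 KO cells with and without that library. Of 35 large subunit assembly factors 26 were higher and 2 lower in WT cells (median 0.38), and in ATG7 KO cells 3 and 0 with that library (median 0.22) and 26 and 1 without it (median 0.32). MAK16, one of them, was at 1.09 in WT and at 0.89 and 0.93 in ATG7 KO cells with and without it. In the interaction without that library, 8 of the small subunit factors had a lower and 3 a higher response in ATG7 KO cells (median -0.09). For the large subunit factors these counts were 10 and 7 (median -0.10), and for all genes tested the shares were 16.3% and 17.8%. With all libraries, 2 factors of each list had a lower and 1 a higher response (all genes tested: 7.01% and 7.02%). Of 16 snoRNP and nucleolar proteins 15 were higher in WT cells (median 0.44), with the helicase DDX21 at 1.27, and in ATG7 KO cells 1 was higher and none lower with that library (median 0.20), and 13 were higher and 1 lower without it (median 0.30). Set beside these medians, that of the members was 0.42 in WT cells and -0.26 and 0.10 in ATG7 KO cells with and without that library, and whether the lists differ in this was not tested.

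Of RNA polymerase I and its regulators 10 of 16 were higher and none lower in WT cells, with the initiation factor RRN3 at 1.004 and MYC, an activator of ribosome genes, at 1.11. MYC was at 22.4, 21.1 and 22.6 FPKM in untreated and 50.4, 47.8 and 44.8 FPKM in treated WT cells, and at 15.7, 16.8 and 15.7 FPKM in treated ATG7 KO cells. The treated lines differed by -1.58 (adjusted p = 2.85e-22), and 9 of the 16 genes were lower and 3 higher in ATG7 KO cells. Translation initiation factors were higher in 19 of 30 and lower in 2 in WT cells, led by EIF1, which sets start codon choice, at 1.32, and between treated lines 14 of 30 were lower and 3 higher. The chaperones dedicated to single ribosomal proteins were higher in 7 of 12 in WT cells, led by ZNF622 (1.16).

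The mTOR and LARP1 list had no common direction. Of 17 tested genes 5 were higher and 6 lower in WT cells (all genes tested: 30.9% and 30.1%). SESN1 (3.05) and DDIT4 (2.90), both inhibitors of mTOR, were higher, and MTOR itself (-0.91) and TSC2 (-0.89) were lower. Treated ATG7 KO cells had less DDIT4 than treated WT cells (-2.01) and more MTOR (0.66). Of the 22 genes of ribosome quality control and ribophagy 9 were higher and 8 lower in WT cells, with ASCC3, a helicase that splits stalled ribosomes, at 1.08 in WT cells and at 2.13 and 2.03 in ATG7 KO cells with and without untreated replicate 1.

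The p53 list, to which RPS27L belongs by its regulation, was high in both treated lines. Of 12 genes 10 were higher and 2 lower in WT cells (median 2.98), and in ATG7 KO cells 9 and 1 with untreated replicate 1 (median 2.60) and 9 and 2 without it (median 2.88). CDKN1A rose by 4.96 in WT and by 5.14 and 5.18 in ATG7 KO cells with and without that library. MDM2 was at 6.16, 5.71 and 5.63 FPKM in untreated and 64.1, 70.3 and 64.7 FPKM in treated WT cells, and at 103, 102 and 96.9 FPKM in treated ATG7 KO cells, which had more of it than treated WT cells (0.59, adjusted p = 7.07e-16). RPL5 and RPL11 mRNA, as given above, were lower in the same treated ATG7 KO libraries.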

How the data were processed

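The authors extracted total RNA from HLE-B3 cells (3 biological replicates in each of 4 groups) and made libraries with the NEBNext Ultra kit. The paper does not say how mRNA was selected. The submitters' processing notes name HISAT2 2.0.5, featureCounts 1.5.0-p3 and GRCh38. The strand setting and the treatment of multi-mapping reads are not given in the sources used here, so genes that overlap, paralogs and the 1065 ribosomal protein pseudogenes (0.106% to 0.204% of reads) can share reads. The deposited counts are raw reads per gene. The deposited FPKM values were scaled by the authors by gene length and library size.

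Members and gene lists were chosen with earlier results of these data known. Some items are counted in the sets but not reported here by name. Samples were grouped by their labels. Depth ran from 15602183 to 17659496 reads on genes, and counting error adds to the spread between replicates for members with few reads. Counts were tested with edgeR 4.0.16 in R 4.3.3 (filterByExpr with a minimum count of 10, TMM, robust quasi-likelihood). Each pairwise comparison used its own 6 libraries and the interaction used 12. Benjamini-Hochberg adjustment ran over all genes tested, and a call is an adjusted p under 0.01. SE belong to log2 fold changes. The tests were checked on simulated counts with the same spread in every gene and no library set apart. That check does not cover results that rest on untreated ATG7 KO replicate 1. Named members are the paralogs, RPL5, RPL11 and readthroughs; the 5 highest and 5 lowest called members of each comparison whose groups did not overlap; up to 3 called members at each end of the interaction; the 3 highest and 3 lowest by FPKM; and up to 2 called genes at each end of a list. Other members are named as parts of a group or after their values were seen, among them every one named only in comparisons without untreated ATG7 KO replicate 1. Median mRNA lengths and exon overlaps came from GENCODE 29, whose coordinates matched all 85 members, and start sequences from RefSeq, where 17 members had no match.

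Replicate numbers did not pair the libraries, and no pair of libraries in a group agreed within sampling noise (mean chi-square per gene between 2.08 and 77.2). The alternatives were DESeq2 1.42.0, RLE factors, TMM without members, no filter, all 12 libraries, a replicate block, offsets for gene length and, added after the data were seen, for mRNA length (lowess, span 0.3), an adjusted p under 0.05, and each library left out.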

Additional observations from a re-analysis of the deposited data

Results flagged for a closer look

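In 6 members the H2O2 responses of ATG7 KO and WT cells differed by the interaction test of edgeR over all 12 libraries, each with a log2 fold change in ATG7 KO cells below that in WT cells. Of all genes tested, 7.01% had a lower and 7.02% a higher response by that test, so 6 of 79 members is near that share. All 6 were above 0 in WT cells and below 0 in ATG7 KO cells with all libraries (RPL22L1 0.20 and -1.23, RPS29 0.99 and -0.85). In ATG7 KO cells none of the 6 was called with all libraries. On the log2 scale the differences were -1.84 for RPS29 (adjusted p = 0.00828), -1.73 for RPL26 (adjusted p = 0.0045), -1.55 for RPS21 (adjusted p = 0.00889), -1.43 for RPL22L1 (adjusted p = 0.00461), -1.38 for RPS28 (adjusted p = 0.00825) and -0.81 for RPL30 (adjusted p = 0.00663). Untreated ATG7 KO replicate 1 was above the other untreated ATG7 KO libraries in all 6. Without it the differences were -1.15, -1.20, -0.98, -1.02, -0.91 and -0.58 in the same order, and all 6 still passed the test. In the response of ATG7 KO cells without it, RPL22L1 was called lower (-0.84) and the rest of the 6 were not called. RPL26 was at 0.14, RPL30 at 0.02, RPS28 at -0.07, RPS21 at -0.125 and RPS29 at -0.18. With any one WT library or any one H2O2-treated ATG7 KO library left out, none of the 79 members passed the interaction test, and with untreated ATG7 KO replicate 2 or 3 left out 22 passed. The shares of all genes that passed in these fits are not given here. RPL30, an RNA-binding protein of the large subunit, was at 51.8, 51.4 and 52.1 FPKM in untreated WT, 77.2, 78.0 and 82.4 in treated WT, 96.5, 62.6 and 64.0 in untreated ATG7 KO and 64.2, 66.8 and 62.8 in treated ATG7 KO libraries. RPS21 was at 142, 136 and 139 FPKM, 256, 243 and 260 FPKM, 443, 194 and 167 FPKM and 174, 167 and 158 FPKM in the same order of groups. Both were higher in treated WT cells than in treated ATG7 KO cells in every library.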

How the results depend on the processing

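The rise of the members in WT cells (74 higher) was between 64 and 75 members in all alternatives except the fit of all 12 libraries, whose shared spread includes untreated ATG7 KO replicate 1 and where 11 were higher; with each library left out it was 72 to 74, and 0 were lower throughout. For treated ATG7 KO against WT cells (65 lower, 3 higher), that fit gave 9 lower and 0 higher and the mRNA length offset gave 5 higher; each library left out gave 60 to 66 lower and 2 to 3 higher. For untreated cells (0 and 0), 3 were higher by DESeq2, 4 with all 12 libraries, 1 with the gene length offset, 2 with the mRNA length offset and 3 at an adjusted p under 0.05, and leaving out each library gave 0 to 19 higher and 0 to 17 lower. For H2O2 in ATG7 KO cells (1 higher, 0 lower), 1 was lower by DESeq2, with all 12 libraries, with the replicate block, with either length offset and at an adjusted p under 0.05, 2 were higher with all 12 libraries, with the mRNA length offset and at an adjusted p under 0.05, and leaving out each library gave 0 to 34 higher and 0 to 6 lower. For the interaction (6 lower, 0 higher), 16 were lower by DESeq2, 61 with no filter and 30 at an adjusted p under 0.05, and leaving out each library gave 0 to 57 lower and 0 to 1 higher. For these last 3 comparisons, the highest counts with a library left out are those without untreated ATG7 KO replicate 1. The cause was not tested elsewhere. The shares of all genes called under these alternatives are not given here, so a change in a count of members can also be one of all genes. The number of genes fitted differed too. For the interaction it was 16856 in the main fit and 36648 by DESeq2 and with no filter.

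Signs turned only in members whose log2 fold change was not called. RPS27L in untreated cells (-0.00) was at 0.0059 by DESeq2, 0.0011 with TMM without members, 0.0038 with no filter, 0.18 with the gene length offset and between -0.32 and 0.17 with each library left out. With each library left out, RPL22L1 and RPL11 in untreated cells ranged from -0.0185 to 0.5718 and from -0.0379 to 0.5259, below 0 without ATG7 KO replicate 1. RPL7L1 in treated cells was at 0.0039 with no filter and ranged from -0.0613 to 0.0056. For H2O2 in ATG7 KO cells, RPL26L1 was at 0.0151 and 0.0776 with the gene and mRNA length offsets and RPL5 at 0.0122 with the latter, and with each library left out RPL26L1 ranged from -0.2854 to 0.1543, RPL5 from -0.361 to 0.0648 and RPL11 from -0.4421 to 0.1237, above 0 without untreated replicate 1. RPS27L in the interaction was at -0.16 with the gene length offset. Of the other values of named members under these alternatives, 620 kept direction and side of the threshold, 70 lost a call and 32 gained one in the same direction.

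The numbers of the replicates did not pair the libraries (mean correlations of deviations 0.003, 0.023 and -0.015 for numbers 1 to 3), and the replicate block left 75 members higher in WT cells, 65 lower between treated lines and 5 lower in the interaction, where RPS29 lost its call. Without a filter, or by DESeq2, low-count genes moved the median of all genes in WT cells to 0.20 and 0.24; the median of the members was 0.18 above it in both. RPS10 and RPL36A have few reads, so smaller changes in them were not detectable at this depth.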
